A study of Homo sapiens with 6 samples.

Results

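The genes described here are LYPD1 and 9 further members of the Ly6/uPAR family, namely LYPD3, LYPD5, LYPD6, LYPD6B, LY6E, LY6D, LY6K, PLAUR and PSCA. Their expression was compared between TFK1 cells carrying a negative control (oeNC, n = 3 libraries) and TFK1 cells overexpressing STUB1 (oeSTUB1, n = 3 libraries). The members are the 10 rows of the expression table, of 23569 genes in all, that carry these symbols. LYPD1 was chosen by its rise in this same comparison, so the values of the members are given as a description, without a p-value. TFK1 is a human cell line from an extrahepatic bile duct carcinoma, STUB1 encodes a ubiquitin ligase that also acts as a co-chaperone, and the study asked which genes follow the STUB1, UHRF1 and DNMT1 axis of DNA methylation. The labels give the genotype of the groups as negative control and STUB1 overexpression, with no further treatment. According to the methods, the coding sequence of STUB1 was carried by a lentiviral pHAGE vector and stable cells were selected with puromycin. As far as the text tells, each group was 1 stable population, so the population and the overexpression cannot be told apart. The methods say in general that experiments were independently repeated, but neither they nor the labels say whether the numbered libraries came from separate cultures, so p-values measure the spread between these libraries, which may be technical.

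Proteins of the Ly6/uPAR family are small, cysteine-rich domains that fold into finger-like loops, and most are tethered to the cell surface by a glycosylphosphatidylinositol (GPI) anchor. PLAUR encodes the receptor for urokinase, which focuses plasminogen activation at the surface of migrating cells. LYPD1, LYPD6, LYPD6B, PSCA and LYNX1 are known as modulators of nicotinic acetylcholine receptors, whereas LYPD3, LY6D and PSCA are known from stratified and other surface epithelia. LY6K is a gene of the testis that is also expressed in some tumours, and LY6E is induced by interferon and restricts or aids the entry of certain viruses.

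The libraries held 33106564 to 36744521 fragments, recovered from the steps of the FPKM values (fragments scaled to gene length and to the library total). STUB1 was 32.9, 33.0 and 30.9 FPKM in the oeNC libraries and 61.4, 75.0 and 61.9 FPKM in the oeSTUB1 libraries, a log2 fold change of 1.03 (standard error 0.097, adjusted p = 0.00064 from limma). Fragments of the vector and of the endogenous gene are counted together in this value. A gene passed the test at a Benjamini-Hochberg adjusted p under 0.05 in limma, fitted to log2(FPKM + 0.1) of the 15353 genes that averaged at least 0.1 FPKM. Of these, 2088 passed (13.6%), with 1076 higher (7.01%) and 1012 lower (6.59%) in oeSTUB1 cells. Of 9 biliary epithelial markers, 9 were tested, 5 were lower (among them KRT8, KRT18, EPCAM and CDH1) and 2 were higher (KRT19 and MUC1), and their summed level was 7433 to 8010 FPKM in oeNC and 4735 to 6274 FPKM in oeSTUB1 cells. KRT19, a keratin of bile ducts, was low for this label, at a mean of 0.453 FPKM in oeNC and 2.97 in oeSTUB1 cells. The summed levels of 9 stromal markers (7.21 to 8.92 against 7.64 to 10.6 FPKM, with COL1A2 and DCN at or under 3 fragments), 6 blood markers (31.9 to 33.5 against 24.2 to 25.8 FPKM, mostly CD68, with MS4A1 at that floor), 4 endothelial markers (0.0713 to 0.0973 against 0.0974 to 0.231 FPKM, with VWF and KDR at that floor) and 5 neuronal markers (99.5 to 105.9 against 107.9 to 137.9 FPKM, mostly TUBB3) were far below it. Of these markers CD68 and NEFL were lower and TUBB3 was higher, and the part of all marker shifts in the results was not tested. In such bulk libraries, fewer cells with a transcript and less transcript per cell cannot be told apart.

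One library stood apart by gene length. In oeSTUB1 replicate 2 the 1311 genes under 1500 bases lay at a median of 0.30 above their group mean on the log2 scale, and the 4192 genes of 5000 bases or more lay 0.20 below it (median deviation -0.20). The other oeSTUB1 libraries deviated in the opposite way, which follows largely from measuring each library against a mean that includes replicate 2. The oeNC libraries stayed near their mean. Log2 fold changes of members that rest on this library, and some other values, are also given without it, or as their range when each library is left out in turn.

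**Figure D1:**
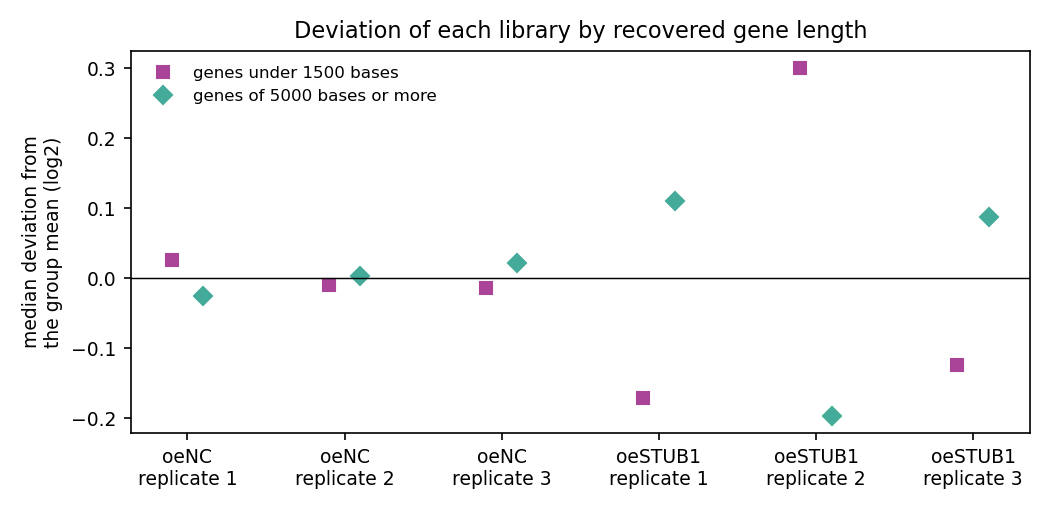
Median deviation of each library from its group mean, in log2 units, for short genes (squares, 1311 genes under 1500 bases) and long genes (diamonds, 4192 genes of 5000 bases or more) with at least 1 FPKM. oeSTUB1 replicate 2 shows the widest gap, from 0.30 for short genes to -0.20 for long genes.

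LYPD1 and LYPD6 both lie on chromosome 2, and their libraries separated between the groups in opposite directions. Their start regions are shown because the study concerns DNA methylation, which falls on cytosines of CG dinucleotides. Each sequence covers 250 bases before to 50 bases after an annotated start, from RefSeq on GRCh38.p14, with each CG in capitals (CG reads the same on both strands). LYPD1 has 2 such windows, the first at chr2:132671477-132671776 and the second at chr2:132670156-132670455, both on the minus strand. LYPD6 also has 2, at chr2:149329735-149330034 and chr2:149330337-149330636 on the plus strand.
LYPD1, first start: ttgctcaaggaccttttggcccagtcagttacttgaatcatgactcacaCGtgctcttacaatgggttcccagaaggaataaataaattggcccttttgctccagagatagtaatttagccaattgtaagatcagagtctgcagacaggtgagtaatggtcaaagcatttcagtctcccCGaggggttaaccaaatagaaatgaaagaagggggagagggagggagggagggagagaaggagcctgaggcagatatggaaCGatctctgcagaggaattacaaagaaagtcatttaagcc
LYPD1, second start: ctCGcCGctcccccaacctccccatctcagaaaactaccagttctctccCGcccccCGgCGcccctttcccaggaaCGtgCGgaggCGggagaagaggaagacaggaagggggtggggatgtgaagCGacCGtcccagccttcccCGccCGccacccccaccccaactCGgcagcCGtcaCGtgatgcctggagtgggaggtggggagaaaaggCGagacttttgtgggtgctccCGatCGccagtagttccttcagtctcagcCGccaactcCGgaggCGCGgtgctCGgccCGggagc
LYPD6, first start: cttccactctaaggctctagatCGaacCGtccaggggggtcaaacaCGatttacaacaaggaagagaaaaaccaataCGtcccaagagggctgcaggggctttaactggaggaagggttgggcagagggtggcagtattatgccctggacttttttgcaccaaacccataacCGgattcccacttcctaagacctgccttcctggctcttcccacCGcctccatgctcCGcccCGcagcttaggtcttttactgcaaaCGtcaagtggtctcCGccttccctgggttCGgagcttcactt
LYPD6, second start: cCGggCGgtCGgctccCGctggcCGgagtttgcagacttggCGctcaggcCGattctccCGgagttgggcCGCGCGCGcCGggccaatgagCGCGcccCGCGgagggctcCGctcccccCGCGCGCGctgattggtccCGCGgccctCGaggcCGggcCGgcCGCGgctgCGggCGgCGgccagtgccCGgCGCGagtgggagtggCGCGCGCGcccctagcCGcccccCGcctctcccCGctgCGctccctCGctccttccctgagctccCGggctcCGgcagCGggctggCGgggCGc

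The first LYPD1 window holds 3 CG dinucleotides, a number reached by 81.8% of the 35116 promoter windows of this length in the table, and the second holds 24, reached by 33.9%. The LYPD6 windows hold 11 (reached by 54.7%) and 49 (reached by 1.60%). The median over all windows was 14, and 96% held at least 1. Of the other members with an entry, LYPD3 had 17, PLAUR 18, LYPD5 5 and LYPD6B 1 in each of its windows, so that 6 of the 10 members were matched. The same window of GPR39, the neighbour of LYPD1, held 20. Methylation was not measured in the files used here, and the counts describe the reference sequence only.

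LYPD1 was nearly silent in control cells and present in every STUB1-overexpressing library. Its expression was 0.0576, 0.0361 and 0.0680 FPKM in the oeNC libraries and 2.34, 2.55 and 1.90 FPKM in the oeSTUB1 libraries. All oeSTUB1 libraries lay far above all oeNC libraries, and oeSTUB1 replicate 3 was the lowest of its group. These levels rested on 8, 5 and 10 fragments in oeNC and on 323, 338 and 260 fragments in oeSTUB1 cells. The group means were 0.0539 ± 0.0163 and 2.27 ± 0.332 FPKM (SD, n = 3 each), a 42.0-fold ratio. From the pooled fragments the ratio was 41.8, with an exact 95% interval of 27.7 to 66.2 that covers counting error only. On the log2(FPKM + 0.1) scale the fold change was 3.94 (standard error 0.19). The pseudocount weighs on so low a gene, and the value was 5.39 as a log2 ratio of group means and 1.63 with a pseudocount of 1. Leaving out a library moved it between 3.85 and 4.05.

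Of the 2 genes that adjoin LYPD1, NCKAP5 passed the test and GPR39 did not. LYPD1 occupies chr2:132644853-132671579 on the minus strand of GRCh38 (GENCODE release 29). The end of GPR39, a zinc-sensing G protein-coupled receptor at chr2:132416574-132646559 on the plus strand, overlaps it from 132644853 to 132646559, and 1180 exonic bases are shared. GPR39 was 5.95, 5.90 and 5.95 FPKM in oeNC and 6.07, 5.55 and 5.10 in oeSTUB1 cells. The groups overlapped, with a log2 fold change of -0.09 (standard error 0.095) and an adjusted p of 0.56 in limma. The strand setting of the counting is not given in the sources used here, so fragments in the shared bases cannot be assigned with certainty. In oeNC cells, GPR39 held 527 to 563 fragments per library and LYPD1 at most 10. The length recovered for LYPD1, 4000 bases, also exceeded the 2412 exonic bases of this annotation, so the authors' gene model was a different one.

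On the other side, NCKAP5 (chr2:132671799-133568463) lies on the same strand, with 219 bases between its end and the start of LYPD1. Whether NCKAP5 and LYPD1 share fragments in the authors' gene model was not tested. The expression of NCKAP5 was 0.0693, 0.0727 and 0.0904 FPKM in oeNC and 0.947, 0.505 and 0.987 in oeSTUB1 cells. NCKAP5 was higher in all oeSTUB1 libraries, least in replicate 2, in which long genes were low (its recovered length is 17459 bases). It rose with a log2 fold change of 2.32 (standard error 0.26, adjusted p = 0.0014 from limma). Without oeSTUB1 replicate 2 the log2 fold change was 2.59 (adjusted p = 0.00031). Its oeNC mean of 0.0775 FPKM was under the filter of 0.1 FPKM, so NCKAP5 entered the test only through its oeSTUB1 level. The following gene, MGAT5, which encodes an N-glycan branching enzyme, went from 6.52 ± 0.0833 to 4.53 ± 1.13 FPKM and did not pass (log2 fold change -0.55, adjusted p = 0.081). Of the 4 tested genes among the 3 nearest on each side of LYPD1, 1 passed, beside 13.6% of all tested genes. The median log2 fold change over chromosome 2 as a whole came to -0.21, and values were negative for 797 of its 1031 tested genes (77.3%).

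**Figure D2:**
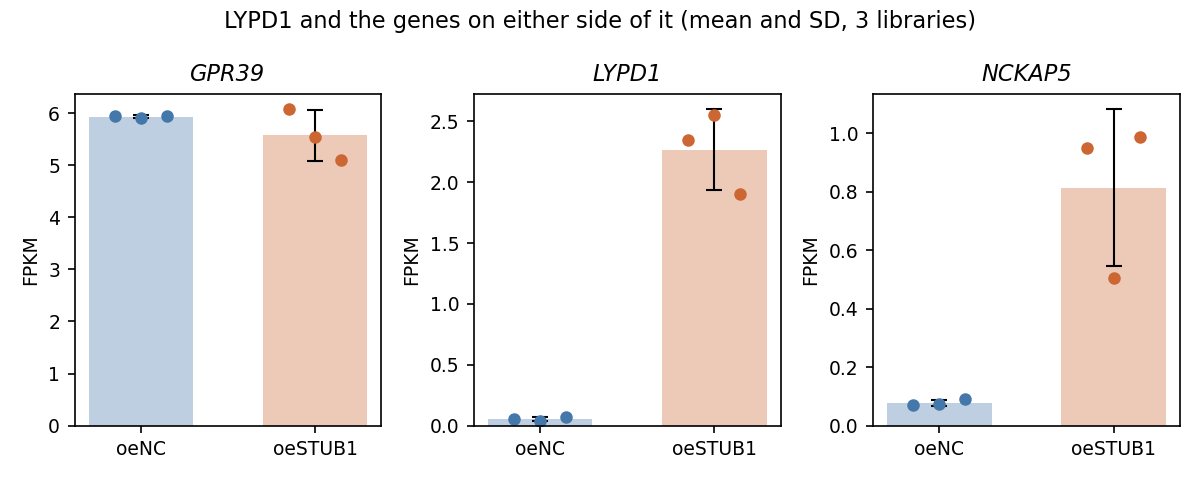
FPKM of GPR39, LYPD1 and NCKAP5, in their order along the chromosome, in oeNC and oeSTUB1 libraries (points: libraries 1 to 3 from left to right, bars: mean, whiskers: SD, n = 3). Each panel has its own axis from 0. LYPD1 and NCKAP5 were higher in all 3 oeSTUB1 libraries, whereas the GPR39 groups overlapped between 5.10 and 6.07 FPKM.

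The profiles most like that of LYPD1 over the 6 libraries were sought by Euclidean distance among 15352 other genes, after each gene's mean was removed on the log2(FPKM + 0.1) scale. The nearest was IGFBP7, a secreted protein that binds insulin-like growth factors (distance 0.43, r = 0.997), from 0.762 ± 0.148 to 14.8 ± 4.40 FPKM. CDH2, the mesenchymal adhesion protein N-cadherin, was next (distance 0.61, r = 0.996), from 0.334 ± 0.0650 to 8.22 ± 1.31 FPKM. GLIPR1 (distance 0.71), DLC1 (distance 1.03) and IGFN1 (distance 1.06) followed, and the 5 genes lie on 5 chromosomes other than that of LYPD1. The 6 points of each correlation fall into 2 groups and share their libraries, and 210 genes had an r of at least 0.98 with LYPD1.

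The neighbouring pair LYPD6 and LYPD6B, further along chromosome 2, encode receptor modulators, and LYPD6 is also known to enhance Wnt signalling at its co-receptor. LYPD6 (chr2:149329985-149474148, plus strand) was 0.685, 0.738 and 0.659 FPKM in oeNC and 0.548, 0.384 and 0.471 in oeSTUB1 cells. All oeSTUB1 libraries lay below all oeNC libraries, with replicate 2 the lowest. The group means were 0.694 ± 0.0407 and 0.468 ± 0.0818 FPKM and the log2 fold change was -0.49 (standard error 0.17), which did not pass. The median log2 fold change of all tested genes was -0.21 on chromosome 2, -0.0017 on chromosome 8 and 0.048 on chromosome 19. A link between the LYPD6 value and that of its chromosome was not tested. LYPD6 has a recovered length of 7149 bases, among the long genes that were low in oeSTUB1 replicate 2, and without a library its log2 fold change lay between -0.59 and -0.38. LYPD6B (chr2:149038107-149215262, plus strand) held 1, 2 and 1 fragments in oeNC and 3, 2 and 0 in oeSTUB1 libraries, at or under the floor of 3 fragments in both groups, so no fold is given. Of the 6 tested neighbours of this pair, RBM43 passed, with a log2 fold change of -0.64 (standard error 0.11, adjusted p = 0.0071 from limma).

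**Figure D3:**
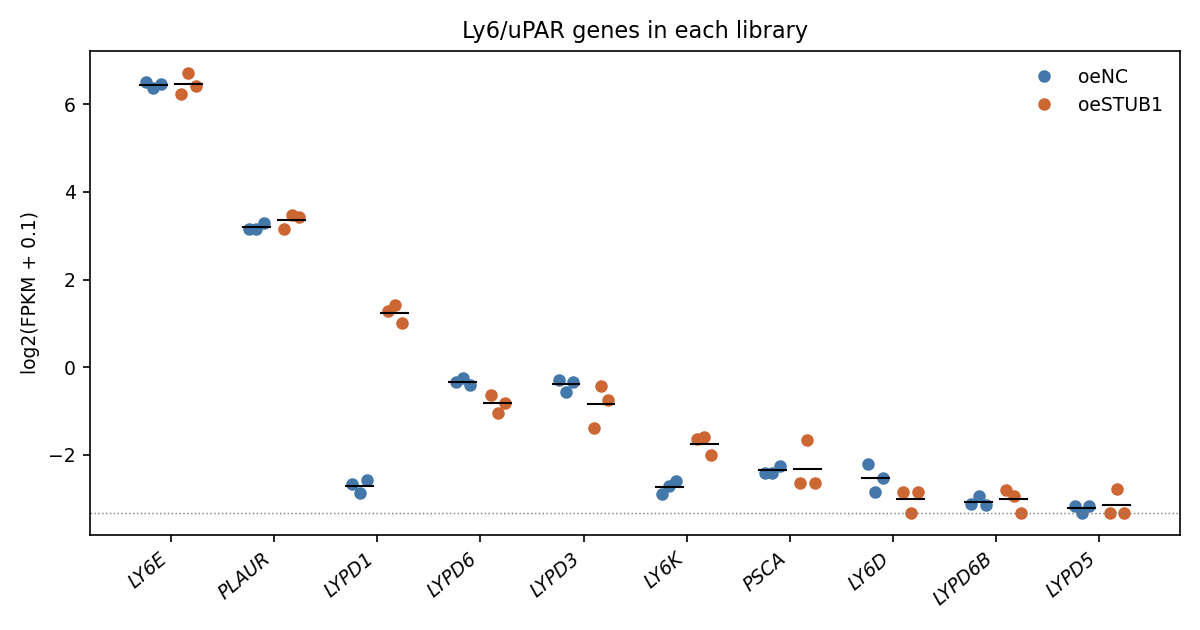
Expression of the 10 members in each library as log2(FPKM + 0.1) (points: libraries, horizontal lines: mean of the 3 log2 values), ordered by mean FPKM. The dotted line marks 0 FPKM. LYPD1 moved from the level of PSCA and LY6K in oeNC to a place between PLAUR and LYPD6 in oeSTUB1 cells.

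PLAUR, LYPD3 and LYPD5 lie close together on chromosome 19, and of these PLAUR and LYPD3 were tested and did not pass. PLAUR, the urokinase receptor (chr19:43646095-43670547, minus strand), was 8.73, 8.83 and 9.64 FPKM in oeNC and 8.84, 11.04 and 10.7 in oeSTUB1 cells. Only oeSTUB1 replicate 1 lay within the oeNC range, and the log2 fold change was 0.16 (standard error 0.11), or 0.10 to 0.26 without a library. LYPD3 (chr19:43460787-43465660, minus strand), also called C4.4A and known from squamous epithelium, was 0.719, 0.580 and 0.696 FPKM in oeNC and 0.283, 0.644 and 0.499 in oeSTUB1 cells. Here oeSTUB1 replicate 2 lay within the oeNC range and replicates 1 and 3 below it, so the groups overlapped (log2 fold change -0.46, standard error 0.26). Without a library, the LYPD3 value ranged from -0.67 to -0.19. LYPD5 (chr19:43795929-43827206, minus strand) held 1, 0 and 1 fragments in oeNC and 0, 4 and 0 in oeSTUB1 libraries. Its only level above the floor was in oeSTUB1 replicate 2, at 0.0466 FPKM. Among 14 tested neighbours of these genes, only KCNN4, a calcium-activated potassium channel, passed, beside 13.6% of all tested genes. KCNN4 was higher in oeSTUB1 cells (log2 fold change 0.69, standard error 0.11, adjusted p = 0.0054 from limma).

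The 4 members of the Ly6 cluster on chromosome 8 are LY6E, LY6K, PSCA and LY6D. LY6E (chr8:143017982-143023832, plus strand) was the most abundant member, with 91.1, 82.3 and 88.5 FPKM in oeNC and 75.1, 105 and 85.5 in oeSTUB1 cells. The oeSTUB1 libraries held both the lowest and the highest value, and the means of 87.3 ± 4.53 and 88.6 ± 15.2 FPKM differed by less than the SD. Its log2 fold change was 0.01 (standard error 0.12), with the same sign in 12 of 17 alternatives and a range from -0.12 to 0.12 without a library. LY6E has a recovered length of 1131 bases, among the short genes that were high in oeSTUB1 replicate 2.

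LY6K (chr8:142700111-142705127, plus strand) was low in every library but separated the groups. It was 0.0350, 0.0526 and 0.0661 FPKM in oeNC and 0.220, 0.229 and 0.151 in oeSTUB1 cells. All oeSTUB1 libraries lay above all oeNC libraries, on 25, 25 and 17 fragments against 4, 6 and 8. The ratio of the group means was 3.91, the exact 95% counting interval of the pooled ratio was 2.28 to 6.94, and the log2 fold change was 0.98 (standard error 0.24). All 2876 bases by which the antisense gene LNCOC1 overlaps LY6K are exonic in both, so without strand the 2 genes cannot be told apart there. LNCOC1 went from a mean of 1.87 to 0.999 FPKM and did not pass (adjusted p = 0.070 from limma). It was lowest in oeSTUB1 replicate 2, at 0.542 FPKM against 1.29 and 1.16 FPKM in replicates 1 and 3.

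PSCA and LY6D stayed near the counting limit. PSCA (chr8:142670308-142682724, plus strand) held 3, 3 and 4 fragments in oeNC and 2, 7 and 2 in oeSTUB1 libraries, that is 0.0880, 0.0881 and 0.111 against 0.0591, 0.215 and 0.0596 FPKM. Only oeSTUB1 replicate 2 was above the oeNC libraries and the other oeSTUB1 libraries were below them. Its log2 fold change of 0.03 kept its sign in 12 of 16 alternatives and was -0.29 without oeSTUB1 replicate 2. Its exons share 368 bases with the antisense gene JRK (mean 3.30 and 2.67 FPKM). JRK did not pass and was lowest in oeSTUB1 replicate 2, at 1.93 FPKM against 3.13 and 2.96 FPKM in replicates 1 and 3. LY6D (chr8:142784880-142786592, minus strand), a marker of early B cells and of squamous epithelium, held 3, 1 and 2 fragments in oeNC and 1, 0 and 1 in oeSTUB1 libraries, at or under the floor of 3 in both groups. Of the 4 tested genes inside or beside this cluster that are no members, LYNX1 and ADGRB1 passed, beside 13.6% of all tested genes. LYNX1 rose and ADGRB1, an adhesion receptor beyond PSCA, fell (log2 fold change -0.75, standard error 0.18, adjusted p = 0.030 from limma). ADGRB1 passed in 9 of 15 fits.

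Of the 10 members, 7 passed the filter on low values, and LYPD5, LYPD6B and LY6D did not. LYPD1 and LY6K passed this filter only through their oeSTUB1 levels, and PSCA only through oeSTUB1 replicate 2. LYPD1 and LY6K were also the members past the threshold as higher (2 of 7), beside 13.6% of all tested genes past it in either direction and 7.01% as higher, and 0 members were past it as lower in limma (1 at an unadjusted p under 0.05, and 0 by limma-voom). LY6K was past the threshold in 8 of 15 fits and LYPD1 in 16 of 16. The groups did not overlap for LYPD1, LY6K and LYPD6, beside 38.8% of all tested genes. Since LYPD1 was selected on this comparison and the filter itself depends on the levels, nothing is read from these counts. The median log2 fold change of the 7 was 0.03, and that of all tested genes 0.02.

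By level per gene length, the order in oeNC cells was LY6E, PLAUR, LYPD6, LYPD3, PSCA, LY6D, LYPD1, LY6K, LYPD6B and LYPD5. Within it LYPD6 and LYPD3 overlapped between libraries, as did each neighbouring pair from PSCA to LY6K. In oeSTUB1 cells LYPD1 stood directly after LY6E and PLAUR, and LYPD3 and LYPD6 again overlapped below it. The summed level of the members was 98.0 ± 4.71 FPKM in oeNC and 102 ± 16.6 in oeSTUB1 cells, mostly LY6E. Without LY6E and PLAUR it was 1.66 ± 0.0871 and 3.59 ± 0.492 FPKM, of which LYPD1 made up 2.31 to 4.01% in the oeNC and 60.9 to 66.3% in the oeSTUB1 libraries.

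**Figure D4:**
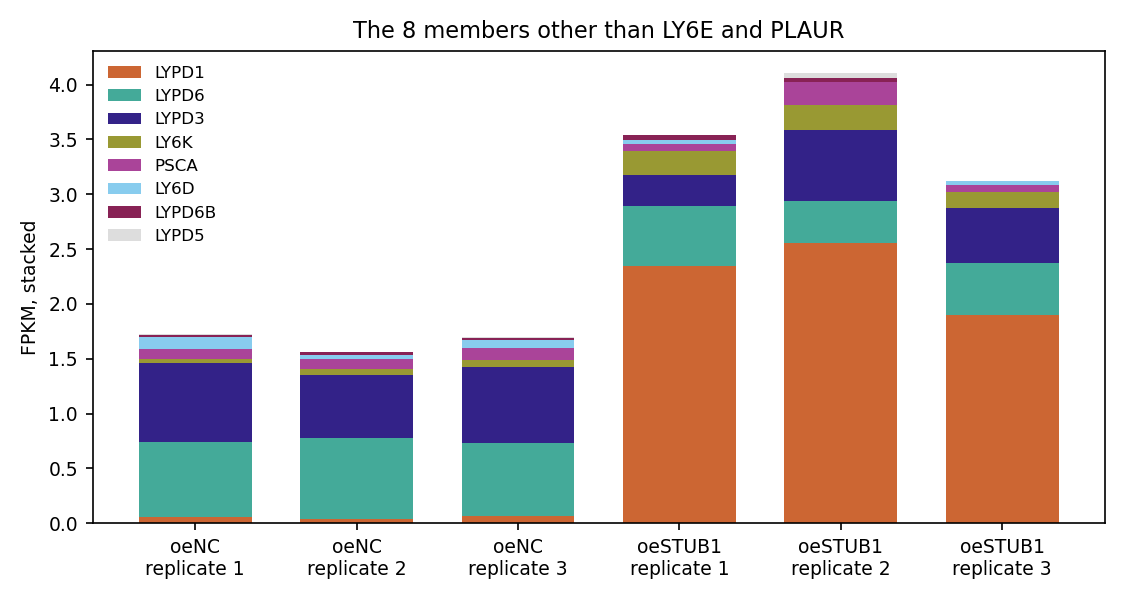
Stacked FPKM of the 8 members other than LY6E and PLAUR in each of the 6 libraries (from the bottom: LYPD1, LYPD6, LYPD3, LY6K, PSCA, LY6D, LYPD6B and LYPD5). LYPD1 made up at most 4.01% of the stack in oeNC and at least 60.9% in oeSTUB1 libraries.

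Other genes of the family were taken from a list of 27 symbols, of which 13 were in the table, 5 were tested and 2 rose, beside 7.01% of all tested genes. CD59, which shields cells from the complement membrane attack complex, was 14.3, 14.1 and 13.2 FPKM in oeNC and 25.3, 29.4 and 24.5 in oeSTUB1 cells. All oeSTUB1 libraries were higher, with a log2 fold change of 0.92 (standard error 0.092, adjusted p = 0.00079 from limma), and CD59 passed in 16 of 16 fits. LYNX1, a neuronal brake on nicotinic receptors, was 0.0942, 0.218 and 0.2002 FPKM in oeNC and 0.326, 0.586 and 0.431 in oeSTUB1 cells. The groups did not overlap (log2 fold change 1.02, standard error 0.28, adjusted p = 0.049 from limma), but LYNX1 passed in 6 of 15 fits and in 0 of the 6 that left out a library, where adjusted p lay between 0.058 and 0.15. The annotation also holds a read-through gene of LYNX1 and SLURP2, so the assignment of its fragments is uncertain. LY6G5B (4.05 ± 0.228 and 4.67 ± 1.03 FPKM), LY6G5C (0.178 ± 0.0542 and 0.299 ± 0.1099 FPKM) and SPACA4 (0.114 ± 0.0995 and 0.131 ± 0.0156 FPKM) did not pass. The other 8 in the table, among them LY6H, GPIHBP1, TEX101 and CD177, were below the filter and reached at most 9 fragments in a library. The median log2 fold change of the 5 was 0.51, beside 0.02 over all tested genes.

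**Figure D5:**
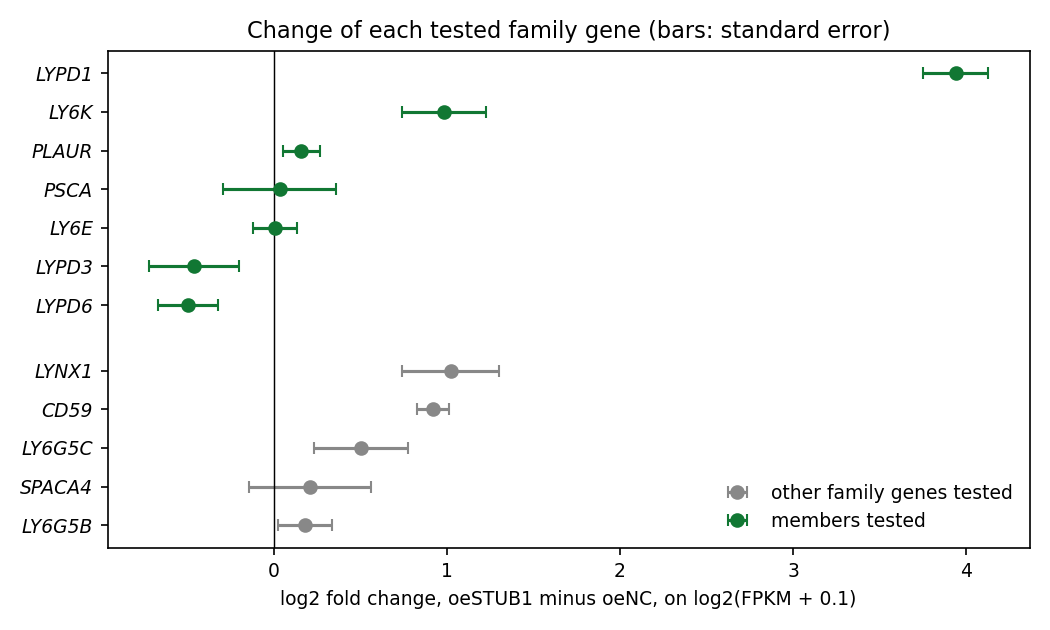
Log2 fold change (oeSTUB1 minus oeNC, on log2(FPKM + 0.1)) with its standard error for the 7 tested members (green) and the 5 other tested family genes (grey). LYPD1 lies at 3.94, LY6K at 0.98, LYNX1 at 1.02 and CD59 at 0.92, and LYPD6 is the lowest at -0.49.

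Among genes of the urokinase and plasminogen system around PLAUR, SERPINE2, PLAT and ITGA3 rose and SERPINF2 fell. Of 26 listed genes of the urokinase system, 23 were tested, 4 rose and 1 fell, beside 7.01% of all tested genes higher and 6.59% lower, with a median log2 fold change of 0.04. PLAU, the urokinase that PLAUR binds, was 22.8 ± 0.619 FPKM in oeNC and 22.6 ± 2.49 in oeSTUB1 cells (adjusted p = 0.91 from limma). SERPINE2, an inhibitor of plasminogen activators, rose in all oeSTUB1 libraries. It went from 6.89 ± 0.140 to 14.7 ± 1.34 FPKM (log2 fold change 1.07, standard error 0.092, adjusted p = 0.00042) and passed in 16 of 16 fits. PLAT, the tissue-type plasminogen activator, went from 0.235 ± 0.116 to 0.712 ± 0.191 FPKM (log2 fold change 1.31, adjusted p = 0.023), and without oeNC replicate 2, oeNC replicate 3 or oeSTUB1 replicate 1 it did not pass. ITGA3, an integrin chain that associates with the receptor, rose from 37.8 ± 0.873 to 57.5 ± 4.42 FPKM (log2 fold change 0.60, adjusted p = 0.0030). SERPINF2, the inhibitor of plasmin, fell from 1.29 ± 0.145 to 0.777 ± 0.172 FPKM (log2 fold change -0.67, adjusted p = 0.047), a call kept in 6 of 16 fits. Without oeSTUB1 replicate 2, 9 genes of this list passed, 5 higher and 4 lower, among them SERPINE2, PLAT, ITGA3 and SERPINF2, beside 4112 of all 15353 tested genes.

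The genes that build, attach or trim the GPI anchor, on which most members depend for their place on the membrane, included PGAP4 among those that rose. Of 34 listed genes, 33 were tested, 3 rose and 0 fell by limma, beside 7.01% of all tested genes higher and 6.59% lower, with a median log2 fold change of 0.01. PGAP4, which adds a sugar to the anchor in the Golgi, was 0.753, 0.910 and 0.904 FPKM in oeNC and 3.25, 3.95 and 3.55 in oeSTUB1 cells. All oeSTUB1 libraries were higher, with a log2 fold change of 1.95 (standard error 0.13, adjusted p = 0.00018 from limma), and PGAP4 passed in 16 of 16 fits. PIGQ, a subunit of the enzyme of the first step, and GDE1 rose by less (log2 fold changes 0.32 and 0.27, adjusted p = 0.048 and 0.032) and passed in 5 and 8 of 16 fits. GDE1 is a glycerophosphodiester phosphodiesterase that was counted in this list, and an action of it on the anchor is not established here. At an unadjusted p under 0.05, 7 genes were higher and 3 lower, and limma-voom on the recovered fragments called 2 higher and 1 lower. Without oeSTUB1 replicate 2, 9 genes passed, 5 higher and 4 lower, beside 4112 of all 15353 tested genes.

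LYPD1, LYPD6 and LYNX1 are known to modulate nicotinic receptors, and among the subunits of this receptor family CHRNA5 rose and CHRNA3 fell. Of 16 listed genes, 6 were tested, and these were the 1 that rose and the 1 that fell, beside 7.01% and 6.59% of all tested genes, with a median log2 fold change of -0.13. CHRNA5, an accessory subunit, was 10.8, 10.3 and 10.6 FPKM in oeNC and 13.9, 14.2 and 14.0 in oeSTUB1 cells. All oeSTUB1 libraries were higher (log2 fold change 0.40, standard error 0.072, adjusted p = 0.010 from limma). CHRNA3, a ligand-binding subunit, was 0.564, 0.627 and 0.525 FPKM in oeNC and 0.237, 0.271 and 0.239 in oeSTUB1 cells, so that all oeSTUB1 libraries were lower (log2 fold change -0.95, standard error 0.17, adjusted p = 0.011). Both lost the call without oeNC replicate 1 or without oeNC replicate 2, with adjusted p of at most 0.074 for CHRNA5 and 0.065 for CHRNA3. CHRNB4 went from 0.195 ± 0.0227 to 0.0856 ± 0.0270 FPKM and did not pass (adjusted p = 0.097 from limma). CHRNA7, CHRNA10 and CHRNB1 did not pass either (log2 fold changes -0.36, 0.11 and 0.30), and the remaining listed subunits were not tested.

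Some markers of stratified squamous epithelium, the tissue in which LYPD3 and LY6D are known, fell, and the other tested markers did not pass. Of 22 listed genes, 7 were tested, 0 rose and 3 fell by limma, beside 7.01% of all tested genes higher and 6.59% lower, with a median log2 fold change of -0.48. DSC3, a desmosomal cadherin, was 3.90, 4.19 and 3.88 FPKM in oeNC and 1.04, 0.650 and 0.994 in oeSTUB1 cells (log2 fold change -2.06, standard error 0.17, adjusted p = 0.00040). KRT4, a keratin of mucosal squamous epithelium, fell from 7.58 ± 0.820 to 3.00 ± 1.19 FPKM (log2 fold change -1.37, adjusted p = 0.010, and 0.051 without oeNC replicate 3). JUP, the desmosomal plaque protein plakoglobin, which is also common in simple epithelia, fell from 69.0 ± 2.19 to 46.0 ± 5.53 FPKM (log2 fold change -0.59, adjusted p = 0.0076). At an unadjusted p under 0.05 the numbers were also 0 higher and 3 lower, and limma-voom gave the same counts. TP63, the master regulator of this tissue, was low, at 0.148 ± 0.0691 and 0.291 ± 0.121 FPKM, and did not pass (log2 fold change 0.65). SFN, at 48.9 ± 4.14 and 53.4 ± 10.8 FPKM, did not pass either (log2 fold change 0.11). The same holds for KRT15 and TGM1 (log2 fold changes -0.48 and -0.06).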

How the data were processed

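RNA of TFK1 cells was sequenced in 6 libraries, and groups and replicate numbers were taken from the labels (value columns without a sample: 0). The authors deposited FPKM values by gene symbol. The submitters' processing notes name fastp 0.20.1, HISAT2 2.1.0, HTSeq 0.11.2, R 3.2.0, DESeq2 1.22.2 and GRCh38.p13, without their roles. The annotation and strand setting are not given in the sources used here. Each gene's values stepped in units of 1 fragment (within 0.001 fragments for 23569 of 23569 genes), which gave fragments and library totals, with 99.7% of each total on listed genes. A gene's fragments may be understated where all share a divisor. Replicates differed by more than sampling noise (chi-square per degree of freedom 3.37 to 76.7), so each was counted.

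The test was two-sided, from limma 3.58.1 under R 4.3.3, using lmFit with trended eBayes on log2(FPKM + 0.1) of genes averaging at least 0.1 FPKM, with Benjamini-Hochberg adjustment over all 15353. This scale understates the change of low genes. The floor was 3 fragments, and a group was at it when none of its libraries held more. Intervals and floors cover counting error only. The members and gene lists were chosen with earlier results of these data known. Named were the members, STUB1, GPR39, up to 4 passing genes per direction and list, neighbours that passed or adjoin a member, and the 5 profiles nearest to LYPD1. Genes named beyond this rule (MGAT5, CHRNB4, CHRNA7, CHRNA10, CHRNB1, TP63, SFN, KRT15, TGM1, PLAU, LY6G5B, LY6G5C, SPACA4 and overlapping antisense genes) were chosen after their values were seen. Some genes of the lists are counted but not reported here by name. On simulated data with 200 genes changed 4-fold among 15344 tested, 200 were recovered with the right sign and 16 unchanged genes were called. The changed genes there averaged at least 1 FPKM, and every gene had the same spread, without a trend by gene length. The simulation therefore does not cover lower genes or the length pattern of oeSTUB1 replicate 2. Gene positions are from GENCODE release 29 (GRCh38), chromosomes of all genes from RefSeq (96.7% placed), and start regions from RefSeq on GRCh38.p14. As alternatives, the pseudocount was set to 1 or 0.01, the filter was dropped or raised to 1 FPKM, values were scaled by median ratios or quantiles, the trend was dropped, the replicate block was added, each library was left out, and limma-voom, a fold minimum and the ratio of means were used. A lowess correction for gene length was added after the data were seen.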

Additional observations from a re-analysis of the deposited data

How the results depend on the processing

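The log2 fold change of LYPD1 moved from 3.94 to 1.63 with a pseudocount of 1, 5.18 with 0.01, 5.33 with limma-voom and 5.39 as a ratio of means. The 2 members past the threshold became 1 (LYPD1) with a pseudocount of 1, a filter at 1 FPKM, the replicate block and a minimum absolute log2 fold change of 1. With a library left out they also became 1, except without oeSTUB1 replicate 3, where they stayed 2. The 2088 genes that passed became 3322 with the length correction, 798 with the fold minimum, and 933 (without oeNC replicate 2) to 4112 (without oeSTUB1 replicate 2) when a library was left out. The other family genes that passed were 1 with a pseudocount of 0.01, no filter, a filter at 1 FPKM, median-ratio scaling, the fold minimum, and 1 without each library. The urokinase genes were 3 with no filter, a filter at 1 FPKM and the fold minimum, and 3 to 9 without a library. The GPI anchor genes were 1 with quantile normalization, no trend, the replicate block and the fold minimum, 7 with the length correction, and 1 to 9 without a library. The nicotinic subunits were 1 with a filter at 1 FPKM, 0 with the fold minimum, and 0 to 2 without a library. The cause of these changes was not tested. A stricter filter or a left-out library also leaves fewer genes or samples. GPR39 and STUB1 kept their calls under every alternative run, and 2 or 3 genes of the squamous list passed.

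The replicate numbers did not pair the libraries (correlation of same-numbered deviations -0.15, -0.083 and 0.15), not every library correlated best with its own number, and with the replicate block 1488 genes passed. Under it ADGRB1, a neighbour of PSCA, had an adjusted p of 0.070 against 0.030 without the block. At this depth, changes of LYPD5, LYPD6B and LY6D, at most 4 fragments in a library, were not detectable.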
